A study of Homo sapiens with 4 samples.

Results

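Folate uptake and folate cycle genes were described in AGS, an established line from a human gastric adenocarcinoma, which the labels call gastric epithelial cells. The group held 8 genes: the receptor genes FOLR1 and FOLR2, the transporter genes SLC19A1 and SLC46A1, and the enzyme genes FPGS, SHMT1, MTHFD1 and TYMS. Their features were all probe sets (groups of short array probes for 1 transcript) that the platform annotation maps to exactly 1 of these symbols, 23 of 54675 on the array. The group was chosen on measured values, because FOLR1 differed between replicate numbers, so that difference is given as a description without a test. Another 2 probe sets carried SHMT1 together with the microRNA gene MIR6778, and they were left out by the same rule.

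The series comprised 4 single-channel arrays. Untreated cells received fresh medium, and treated cells received lipopolysaccharide of Helicobacter pylori (LPS, a glycolipid of the bacterial outer membrane) at 10 µg/ml. RNA was taken 8 h later in both groups, each of which held 2 arrays, numbered 1 and 2. All cells were grown in Ham's F-12 with foetal calf serum, glutamine, penicillin and streptomycin. The design text speaks of 2 independent experiments, but the labels do not say that a number marks an experiment, so p-values measure the spread between these arrays. Values are deposited log2 expression, on which a difference of 1 is a doubling.

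Folates carry single-carbon units for the making of thymidylate, purines and methionine. Reduced folates enter most cells through the carrier encoded by SLC19A1. SLC46A1 encodes the proton-coupled transporter that absorbs folate in the intestine, and the folate receptors are membrane-anchored proteins that bind folate tightly and bring it in by endocytosis. FPGS adds glutamates that keep folate inside the cell. SHMT1 moves a carbon unit from serine to tetrahydrofolate in the cytosol, MTHFD1 interconverts the loaded forms, and TYMS uses one of them to make thymidylate for DNA.

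No folate gene passed the test of LPS against untreated cells. On the probe set with the highest mean for each gene, the differences ran from -0.14 for SLC46A1 to 0.10 for SLC19A1. With limma and Benjamini-Hochberg adjustment over all genes, 0 of the 8 genes passed, and over all 19775 genes the percentage called was 0. At an unadjusted p under 0.05 there were also 0 of the 8, against 2.83% of all genes. Each probe set tested on its own gave the same: 0 of 23 after adjustment, where 0% of all probe sets were called, and 0 of 23 without it, against 2.68% of all probe sets. The 95% interval lay within 1.5-fold in either direction for 7 of the 8 genes, the exception being FOLR1. Of the 8 genes, 4 had treated arrays that did not overlap the untreated ones, where 29.6% of all genes did. Among probe sets the count was 10 of 23, against 29.8% of all, and probe sets of 1 gene are not independent of each other. The median difference of the 8 genes was -0.04, beside 0.02 for all genes. In RNA from a whole culture, fewer cells with a transcript and less of it per cell cannot be told apart.

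**Figure D1:**
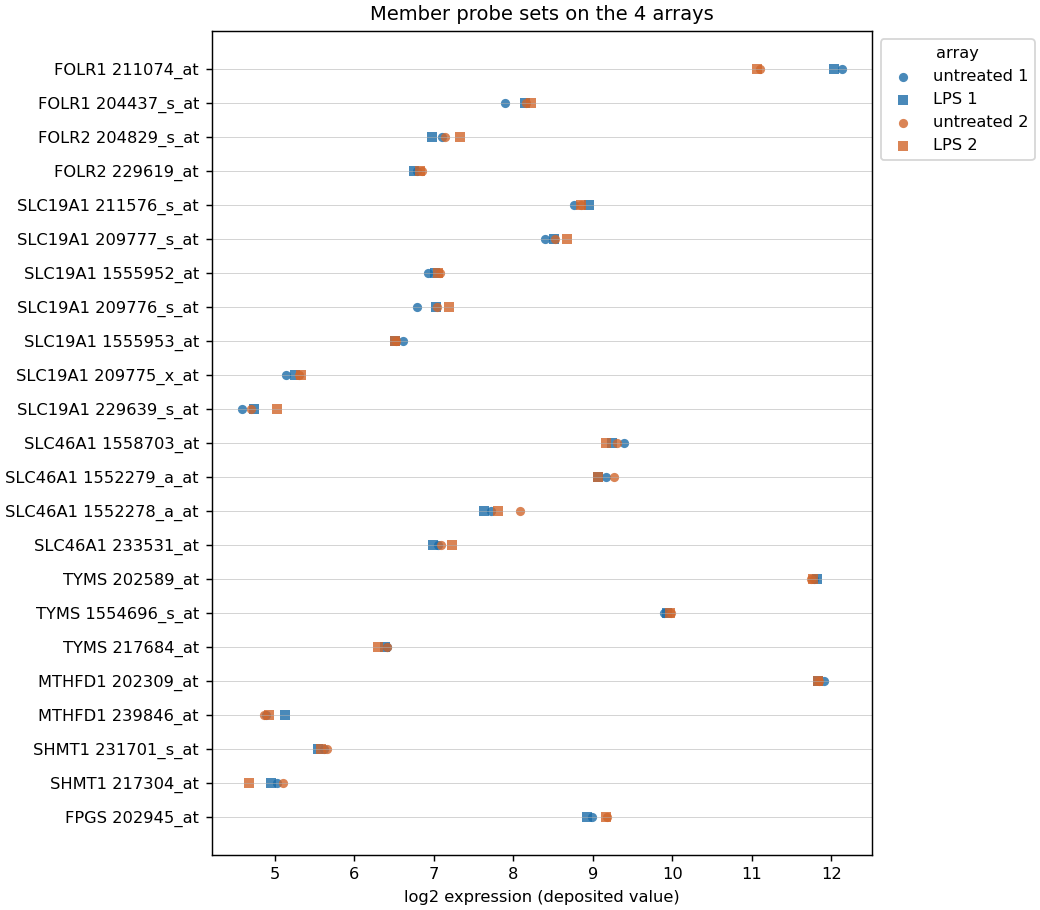
Deposited log2 expression (horizontal axis) of the 23 probe sets (rows) on the 4 arrays; circles are untreated and squares LPS-treated arrays, blue is number 1 and orange number 2. The points of most rows lie close together, while FOLR1 211074_at falls into a pair near 12 and a pair near 11 by number.

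FOLR1 encodes folate receptor alpha, an epithelial receptor that several carcinomas carry at high levels. Its 2 probe sets differed by replicate number in opposite directions. The brighter one, 211074_at, stood at 12.14 and 11.10 on untreated arrays 1 and 2 and at 12.03 and 11.07 on LPS arrays 1 and 2. Both arrays numbered 1 were thus high and both numbered 2 low, whatever the treatment. The mean was 12.09 ± 0.08 (SD, n = 2) for number 1 and 11.09 ± 0.02 (SD, n = 2) for number 2, a difference of 1.00, or 2.00-fold. It was 1.04 among untreated and 0.96 among treated cells.

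The second probe set, 204437_s_at, read 7.90 and 8.16 in untreated and 8.15 and 8.23 in treated cells. Here the arrays numbered 1 were the lower ones, by 0.17 on average. The higher level on number 1 was therefore seen on 1 of the 2 probe sets of FOLR1, and averaging them gave a difference of 0.42 in place of 1.00. The suffix _s_at marks probes that can share signal between related transcripts. In the RefSeq gene table (GRCh38.p14) FOLR1 lies directly between its relatives FOLR3 and FOLR2, but gene order does not show shared probes. Probe sequences were not examined, and shared signal was not tested for either probe set.

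**Figure D2:**
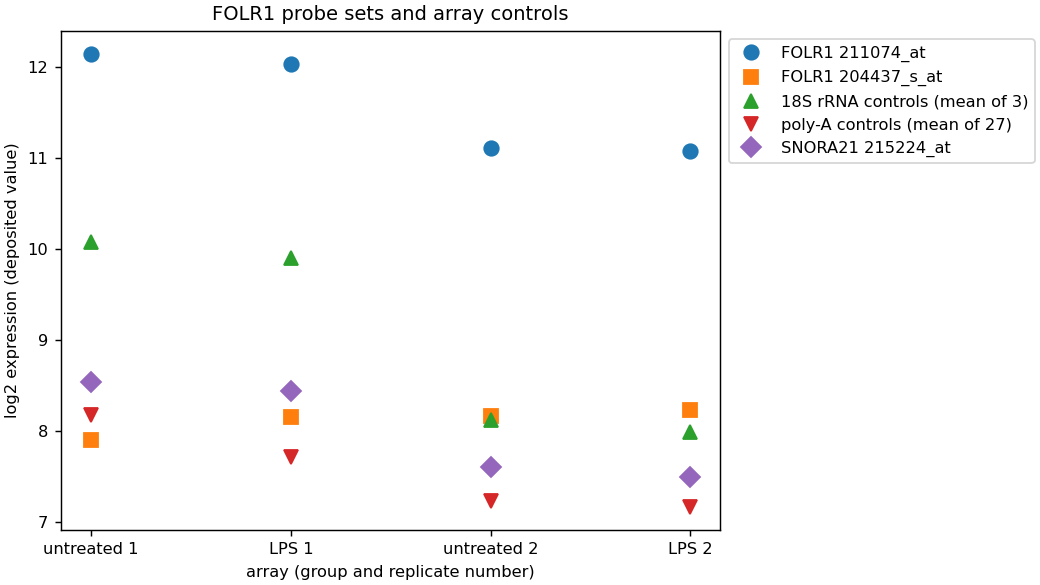
Deposited log2 expression (vertical axis) of both FOLR1 probe sets, the 18S ribosomal RNA and poly-A control probe sets (means of 3 and 27) and SNORA21 on each array. FOLR1 211074_at, SNORA21 and both kinds of control are higher on the arrays numbered 1, and FOLR1 204437_s_at is lower there.

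Control features moved with the same arrays. The 18S ribosomal RNA controls averaged 10.07 and 9.89 on the arrays numbered 1 (untreated, then LPS) and 8.12 and 7.98 on those numbered 2. The 27 probe sets for bacterial transcripts used as poly-A controls averaged 8.17 and 7.72 against 7.23 and 7.16. Their part in the FOLR1 difference was not tested. By number, 13 of the 23 probe sets had arrays that did not overlap, where 48.4% of all probe sets did. Of these 13, 2 were higher on number 1 and 11 on number 2. The median over all genes was -0.04 (number 1 minus number 2). At a minimum difference of 0.5, 211074_at alone of the 23 was apart, against 2.24% of all probe sets. The other 22 differed by -0.27 to 0.11. Of all probe sets with 1 symbol, 211074_at ranked 85 by the size of its difference by number.

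The 5 genes whose 4 values, centred on their mean, lay nearest to those of FOLR1 were SNORA21, MACC1, EIF3C, DCUN1D1 and INHBC. They were picked for this pattern, which is mostly the difference by number, so their own differences by number follow from that choice. Their distances from FOLR1, over the 4 arrays and in log2 units, were 0.08, 0.22, 0.24, 0.25 and 0.25, where the median of all genes was 1.06. SNORA21, a small nucleolar RNA gene, was at 8.53 and 8.44 on the arrays numbered 1 and at 7.60 and 7.50 on those numbered 2. The translation factor gene EIF3C, also measured by 1 probe set, differed by 0.89 by number. For the other 3 genes the pattern belonged to the brightest probe set: MACC1 differed by 0.80 on it and by 0.13 to 0.18 on the rest. DCUN1D1 differed by 0.93 against 0.04 to 0.27, and INHBC by 0.85 against -0.11.

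By treatment, FOLR1 211074_at averaged 11.62 ± 0.73 (SD, n = 2) without LPS and 11.55 ± 0.68 (SD, n = 2) with it. The treated to untreated ratio was 0.95, with a 95% interval of 0.52 to 1.74 (limma, adjusted p = 1). That interval, the widest of the 8 genes, rests on the spread between numbers. Within numbers the difference was -0.11 and -0.03, so the treated array was the lower of both pairs. On 204437_s_at the ratio was 1.12 (0.89 to 1.40), with the treated array higher by 0.25 and 0.07.

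FOLR2 encodes folate receptor beta, known from macrophages and placenta. Its 204829_s_at read 7.10 and 7.14 in untreated and 6.97 and 7.33 in treated cells, so that the treated arrays lay on both sides of the untreated ones. The ratio was 1.02 (0.81 to 1.29; limma, adjusted p = 1). The dimmer 229619_at read 6.79 and 6.85, then 6.76 and 6.82, a range of 0.09 over the arrays. Both lay below 7.25, the median over genes of mean expression, and a dim probe set may show background rather than transcript. Among all probe sets with 1 symbol, by mean, 204829_s_at was at percentile 57.9 and 229619_at at 52.7. All 6 measured macrophage markers (CD14, CD163, MRC1, CSF1R, LYVE1 and PTPRC) were below that median too, with array means from 5.15 to 5.34. CD68, also on that list, had no probe set of exactly 1 symbol. On their brightest probe sets, the epithelial markers EPCAM, KRT8, KRT18, KRT19, CDH1 and CLDN4 were all above the median. Their array means ran from 11.96 to 12.09, with CDH1 the lowest marker at 8.15 to 8.37. The dimmer probe sets of CDH1, KRT19 and CLDN4 were below that median. Of the 7 fibroblast and endothelial markers, COL1A1 alone was above it, and array means ran from 6.40 to 6.54. No marker of the 3 lists passed the test by treatment (limma, 0 after adjustment and 0 at an unadjusted p under 0.05).

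SLC19A1, the reduced folate carrier gene, had 7 probe sets, of which 6 lay above 0 and 1 below in the difference by treatment. The brightest, 211576_s_at, read 8.76 and 8.85 in untreated and 8.95 and 8.86 in treated cells. The treated arrays were above both untreated ones, though LPS array 2 exceeded untreated array 2 by only 0.01. The ratio was 1.07 (0.89 to 1.28; limma, adjusted p = 1). The next, 209777_s_at, read 8.40 and 8.52, then 8.51 and 8.67, with groups that overlapped.

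The remaining SLC19A1 probe sets were below the median over genes. The largest difference among the 23 in the upward direction was on the dimmest of them, 229639_s_at, at 4.58 and 4.70, then 4.74 and 5.03, or 0.25 ± 0.12 (SE). The others differed by 0.19 (209776_s_at), 0.06 (209775_x_at), 0.03 (1555952_at) and -0.06 (1555953_at). None of these passed the test (limma over probe sets, adjusted p = 1 for each).

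SLC46A1, the gene of the proton-coupled transporter, was lower with LPS on 3 of its 4 probe sets by similar amounts, none of which passed the test. The brightest, 1558703_at, read 9.39 and 9.30 in untreated and 9.24 and 9.17 in treated cells. Both treated arrays were below both untreated arrays, and the treated array was lower by 0.15 and 0.13 within numbers. The ratio was 0.91 (0.76 to 1.08; limma, adjusted p = 1, unadjusted p = 0.229), the smallest unadjusted p of the 8 genes.

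On 1552279_a_at the values were 9.16 and 9.26, then 9.06 and 9.07, again without overlap, a difference of -0.15 ± 0.11 (SE). On 1552278_a_at they were 7.72 and 8.09, then 7.63 and 7.81, a difference of -0.18 ± 0.16 (SE) with groups that overlapped. The dimmest, 233531_at, differed by 0.04 in the other direction. The difference of SLC46A1 was -0.13 with quantile normalization and -0.11 with its 4 probe sets averaged. The other alternative settings could not turn its sign. They left the value at -0.14 or dropped 1 array from groups without overlap.

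**Figure D3:**
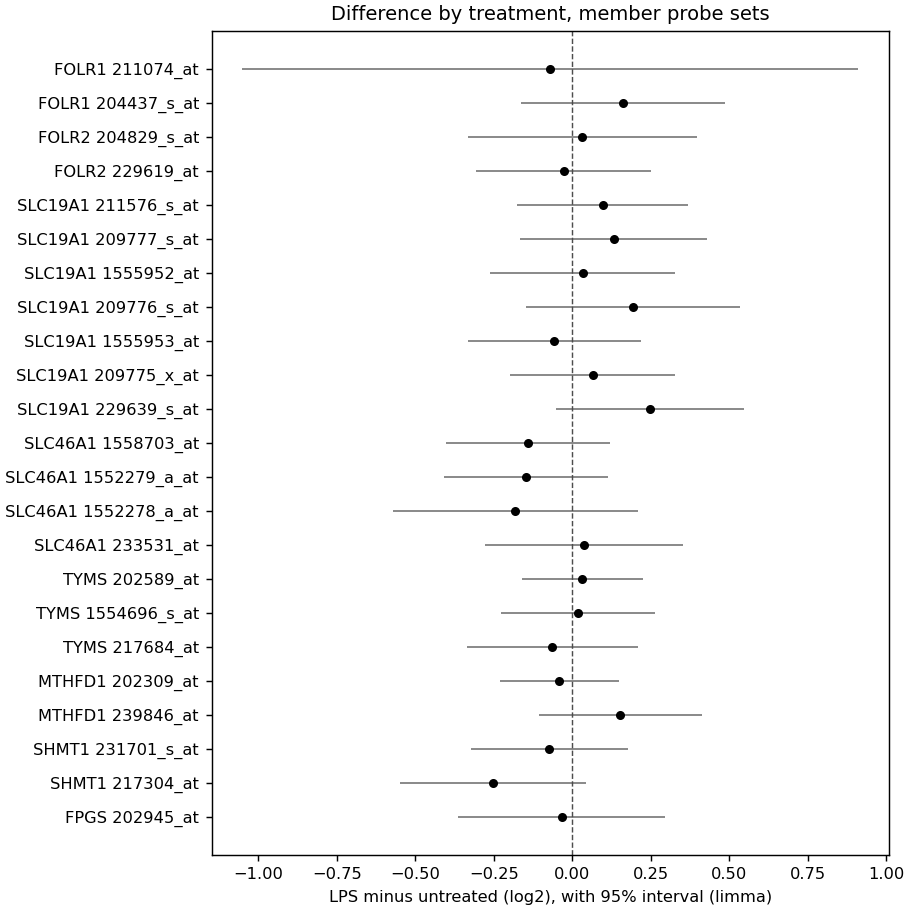
Difference of LPS-treated minus untreated arrays on the log2 scale (horizontal axis) for the 23 probe sets (rows), with 95% intervals from limma fitted over all probe sets. Every interval crosses 0, and that of FOLR1 211074_at is the widest.

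FPGS, the folylpolyglutamate synthase gene, was measured by 1 probe set, 202945_at. It read 8.99 and 9.18 in untreated and 8.93 and 9.17 in treated cells. The arrays numbered 2 were higher by 0.22 in this case, and the groups by treatment overlapped. The treated to untreated ratio was 0.98 (0.79 to 1.21; limma, adjusted p = 1).

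SHMT1, the cytosolic serine hydroxymethyltransferase gene, was dim on both of its probe sets used here. The brighter, 231701_s_at, read 5.62 and 5.65 in untreated and 5.54 and 5.58 in treated cells, lower by 0.07 in both numbers and without overlap. The ratio was 0.95 (0.80 to 1.12; limma, adjusted p = 1). The dimmer 217304_at had the largest downward difference of the 23, -0.25 ± 0.12 (SE; limma over probe sets, adjusted p = 1). It read 5.02 and 5.11, then 4.95 and 4.67, so most of that difference lay on LPS array 2. At this brightness these ratios may not bound a change of the transcript. The probe sets that SHMT1 shares with MIR6778 were left out, so their levels are not given here.

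MTHFD1, whose product has 3 activities of the cytosolic folate cycle, had close values on all arrays on its bright probe set. This one, 202309_at, read 11.90 and 11.84 in untreated and 11.83 and 11.84 in treated cells. All values lay within 0.08 of each other, and the ratio was 0.97 (0.85 to 1.11; limma, adjusted p = 1). The dim 239846_at went the other way, from 4.89 and 4.87 to 5.13 and 4.93.

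TYMS, the thymidylate synthase gene and a target of fluoropyrimidine drugs, had the narrowest spread beside MTHFD1. On 202589_at it read 11.79 and 11.74 in untreated and 11.82 and 11.78 in treated cells, higher by 0.03 in both numbers. The groups overlapped, since untreated array 1 exceeded LPS array 2. The ratio was 1.02 (0.90 to 1.17; limma, adjusted p = 1). The second probe set, 1554696_s_at, read 9.89 and 9.98, then 9.93 and 9.98, a ratio of 1.01 (0.85 to 1.20). The dim 217684_at was lower by 0.06.

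**Figure D4:**
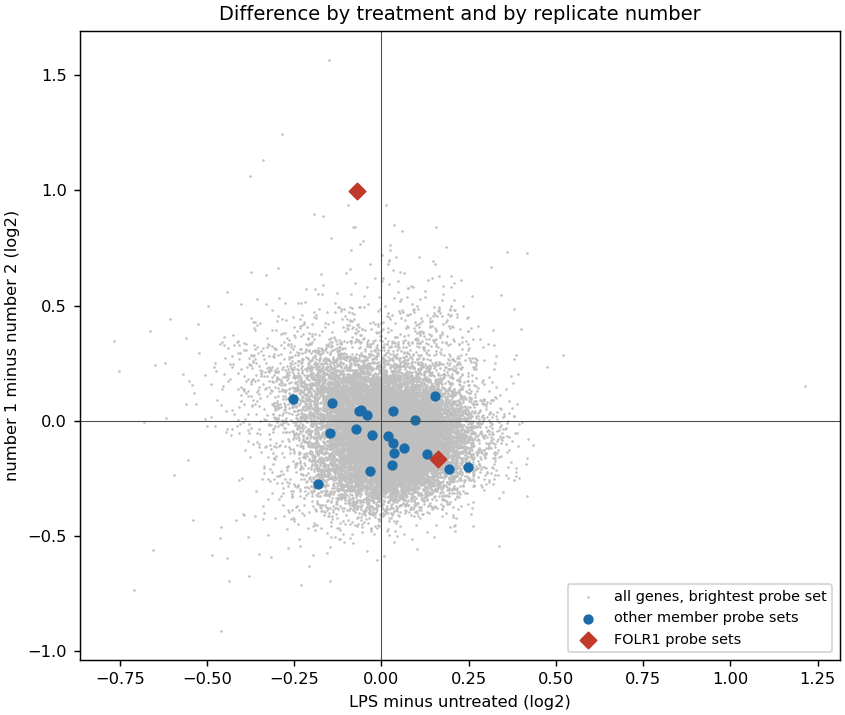
Each point is a gene or probe set, placed by its LPS minus untreated difference (horizontal axis, log2) and by its number 1 minus number 2 difference (vertical axis, log2); grey points are the 19775 genes, blue the other member probe sets, red diamonds FOLR1. FOLR1 211074_at stands at 1.00 by number and -0.07 by treatment, and the other members lie within the main cloud.

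Of 38 further genes of folate and single-carbon metabolism, 33 were measured. None passed (limma, 0 after adjustment over all genes and 0 at an unadjusted p under 0.05), 13 lay above 0 and 20 below, and the median was -0.02. Arrays did not overlap for 13 of the 33 genes, against 29.6% of all genes. For each of the 5 lists the 3 genes with the largest moderated statistic are given, all with an adjusted p of 1 (limma).

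Among carriers and storage genes, SLC25A32, the mitochondrial folate carrier gene, differed by -0.18 ± 0.12 (SE). The lysosomal hydrolase gene GGH, which trims the glutamates that FPGS adds, differed by -0.10 ± 0.09 and the receptor gene FOLR3 by 0.21 ± 0.18 at a low level. This list had 1 of 3 members above 0.

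The cytosolic cycle had 3 of 6 members above 0 and a median of 0.03. The purine synthesis genes ATIC and GART, whose enzymes use formyl-folate, differed by 0.11 ± 0.08 and 0.12 ± 0.10 (SE). For GART the difference was 0.24 on number 1 and -0.003 on number 2. Its other probe sets went both ways, from -0.17 on 210005_at to 0.16 on the dim 216990_at. ATIC read 11.96 and 12.04 in untreated and 12.09 and 12.14 in treated cells. ALDH1L1, which removes formyl groups from folate, differed by 0.16 ± 0.12 and on its other probe set by -0.02.

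The mitochondrial cycle had 3 of 11 members above 0 and a median of -0.02. The glycine cleavage genes GLDC and AMT went opposite ways, by -0.25 ± 0.13 and 0.19 ± 0.14 (SE), both below median expression. MTHFD1L, a formate-making enzyme, differed by -0.13 ± 0.11, also at a low level, and on its other probe set by 0.06. SHMT2 and MTHFD2, the bright mitochondrial counterparts of SHMT1 and MTHFD1, differed by -0.01 and -0.02.

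In the methionine cycle, 3 of 7 members lay above 0. MAT2B, a regulatory subunit of methionine adenosyltransferase, had the smallest unadjusted p of the 33 genes, 0.0626 (limma, adjusted p = 1). It read 11.23 and 11.21 in untreated and 10.95 and 11.09 in treated cells, a difference of -0.20 ± 0.09 (SE). The other probe set of MAT2B, a dim one, differed by -0.18. MAT2A, the catalytic subunit gene, differed by 0.14 ± 0.10 the other way and on its other probe set by 0.001. AHCY, which removes S-adenosylhomocysteine, differed by -0.26 ± 0.16 (SE) and was at 10.99 on LPS array 1, against 11.43, 11.55 and 11.48 on untreated arrays 1 and 2 and LPS array 2.

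Genes that supply deoxynucleotides beside TYMS had 3 of 6 members above 0 and a median of -0.002. The ribonucleotide reductase subunit gene RRM2 read 12.54 and 12.45 in untreated and 12.34 on both treated arrays, a difference of -0.16 ± 0.08 (SE), and its other probe set differed by 0.02. The thymidine kinase gene TK1, of the salvage route to thymidylate, differed by -0.18 ± 0.09 and on its other probe set by -0.14. DCTD, which makes the substrate of TYMS, differed by 0.07 ± 0.09.

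By replicate number, 1 of the 82 probe sets of these 33 genes was apart by 0.5 or more without overlap, or 1.22%, against 2.24% of all probe sets. This was 244822_at of GART, singled out after its values were seen, with 7.71 and 7.72 on the arrays numbered 1 and 6.57 and 6.67 on those numbered 2. Of the 9 GART probe sets, 6 were higher on number 1 without overlap, the other 5 of these by 0.13 to 0.45. The GART probe set 230766_at was lower there without overlap, with a difference of -0.26. Of all probe sets, 48.4% did not overlap by number, in either direction. The brightest GART probe set, 212378_at, differed by 0.04.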

How the data were processed

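Gene expression was measured on 4 arrays of untreated and LPS-treated AGS cells. The deposited values were log2 expression per probe set, and the authors used MAS5 and RMA, per the submitters' processing notes, without stated roles, versions or settings. Their form (minima of 3.19 to 3.28, no zeros) is that of RMA output, which compresses differences of dim probe sets. Detection calls were not used here. All 4 data columns were used without further normalization.

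Probe sets were named through the platform annotation: 41091 had 1 symbol, 1801 several and 11721 none, beside 62 control probe sets. A gene was represented by its probe set with the highest mean. LPS was compared with untreated by limma 3.58.1 in R 4.3.3 (lmFit, eBayes with intensity trend, two-sided, no covariate), adjusted by Benjamini-Hochberg over all 19775 genes, or over all 41091 probe sets for single probe sets, at a threshold of 0.05. The scripts were tested on simulated data. For a single gene, exact permutation of 2 against 2 arrays reaches no p below 0.333. Precision is limited by having 4 arrays.

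The members and lists were chosen with earlier results of these data known. Named were the 8 members, 3 genes per further list by the moderated statistic and the 5 genes nearest to FOLR1 in Euclidean distance. SHMT2 and MTHFD2 were named outside this rule, as counterparts of SHMT1 and MTHFD1. Some genes of the further lists were not analysed here. The alternatives tried were the replicate number as a block, each array left out, quantile normalization, eBayes without a trend, genes of at least median expression, probe sets averaged per gene, probe sets tested singly, and probe sets ending in _x_at or _s_at removed. Figures were drawn with matplotlib 3.10.9.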

Additional observations from a re-analysis of the deposited data

How the results depend on the processing

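No member gene passed the adjusted test under any alternative run. Over all genes the counts past the threshold stayed at 0, except that leaving out 1 array gave 0 to 2 genes higher and 0 to 14 lower with LPS, the calls coming without LPS replicate 2. With the mean of probe sets the difference by treatment turned to 0.045 for FOLR1, -0.0045 for TYMS and 0.056 for MTHFD1. Each of these genes had probe sets on both sides of 0. Without _x_at and _s_at probe sets the difference turned to -0.028 for FOLR2, the value of 229619_at, its only probe set left. Why probe sets of a gene differ was not tested. Leaving out 1 array gave -0.59 to 0.45 for FOLR1, -0.14 to 0.21 for FOLR2 and -0.15 to 0.083 for FPGS. On further probe sets that turned sign it gave -0.062 to 0.0052 for FOLR2 229619_at, -0.044 to 0.11 for SLC19A1 1555952_at and -0.018 to 0.15 for SLC19A1 209775_x_at. It gave -0.37 to 0.0036 for SLC46A1 1552278_a_at, -0.078 to 0.15 for SLC46A1 233531_at and -0.025 to 0.062 for TYMS 1554696_s_at. The difference of FOLR1 by replicate number moved to 0.42 with the mean of probe sets, since its probe sets run opposite ways. The deviations of same-numbered arrays from their group means correlated at 0.44 over genes, which are not independent replicates, but the labels do not state a pairing. With the replicate block, the SE of the FOLR1 difference by treatment of -0.07 was 0.061 in place of 0.37, the adjusted p of the members was 0.64 or more (limma), and the counts of genes past the threshold were 0. The filter at median expression kept 6 of the 8 members and gave no value for FOLR2 and SHMT1. Probe sets below the median over genes, those of SHMT1 and FOLR2 used here among them, limit what their ratios say of the transcript.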
